A study of Mus musculus with 6 samples.

Results

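A set of genes chosen by name for motile cilia was examined together with *Hoatz* in the hippocampal transcriptome of *Hoatz*-deficient mice. The members were *Hoatz*, *Foxj1*, and every gene whose symbol begins with *Cfap*, *Dnah*, *Dnai*, *Drc*, or *Rsph* followed by a number, leaving out 1 opposite-strand transcript (*Dnah2os*). This rule, which uses names and no measured value, found 75 of the 56941 genes in the deposited table. A name does not show that a gene is particular to motile cilia, and *Cfap410*, for example, is known from primary cilia. Of these, 62 were above 0.5 TPM in at least 3 of the 6 libraries and were compared between genotypes. TPM is a relative transcript level that takes transcript length into account and adds up to a fixed total in each library. Poly(A) RNA came from the hippocampi of male littermates on a C57BL/6J background, 1 homozygous *Hoatz* knockout (*Hoatz*-/-) and 1 wild-type mouse at each of postnatal days 172 (replicate 1), 146 (replicate 2), and 108 (replicate 3). The mice received no treatment, and both genotypes came from the breeding of heterozygotes. Values are listed below in the order of postnatal days 172, 146, and 108.

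A motile cilium beats through an axoneme of outer doublet microtubules around a central pair. Outer and inner dynein arms, built on heavy chains (Dnah) and, in outer arms and some inner arms, intermediate chains (Dnai), drive the sliding of the doublets. Radial spokes (Rsph), the nexin-dynein regulatory complex (Drc), and the central apparatus control them, while microtubule inner proteins stiffen the doublet wall. In the brain, multiciliated ependymal cells line the ventricles and move cerebrospinal fluid, and *Foxj1* encodes a forkhead transcription factor required for motile ciliogenesis. Neurons bear a primary cilium, which lacks most of these parts. *Hoatz* encodes a protein of cells with motile cilia and flagella.

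Several facts of the libraries bear on the values. All 10 hippocampal neuron markers examined were above the level required for testing, and *Neurod6*, a transcription factor of pyramidal neurons, lay between 111.67 and 274.01 TPM. Mitochondrially encoded genes, ribosomal RNA genes included, took 30.5% ± 3.48 of the TPM in *Hoatz*-/- libraries, against 19.2% ± 1.5 in the wild-type (SD, n = 3 each). Since TPM sums to a fixed total, other genes have less room where this share is larger, and the 18509 genes tested had a median log2 fold change of −0.44. Fold changes are differences of mean log2(TPM + 0.1), positive where *Hoatz*-/- was higher, and they come out too small for low genes. Median-of-ratios scaling, which sets each library by its typical gene, moved this median to 0.05. Quantile normalization moved it to 0.09, and leaving mitochondrially encoded genes out of the total moved it to −0.24. The summed TPM of 14 choroid plexus markers was 861.8 in the postnatal day 172 *Hoatz*-/- library and between 90.6 and 126.2 in the others, and 11 of the 14 were highest there. The postnatal day 108 *Hoatz*-/- library stood apart from the other *Hoatz*-/- libraries in the members themselves, as given below. In bulk tissue, fewer cells of a type and less RNA per cell cannot be told apart.

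The stretches upstream of the starts of members were searched for the motifs of 2 factor families that act on motile cilia genes. The letters searched on both strands were GTTGCCA, a core of the X-box bound by RFX factors, and TGTTTAC, a core bound by forkhead factors. In the 250 bases before the start of the canonical transcript (GENCODE M39 on GRCm39), GTTGCCA was found in 12 of 75 members (16%) and in 731 of 21770 protein-coding genes (3.36%). TGTTTAC was found in 2 members (2.67%) and in 592 protein-coding genes (2.72%). No base of a member belonged to both motifs. The 12 members with GTTGCCA were *Cfap20*, *Cfap44*, *Cfap58*, *Cfap65*, *Cfap68*, *Cfap73*, *Cfap92*, *Cfap97d2*, *Cfap161*, *Cfap300*, *Dnah1*, and *Dnah7b*. *Cfap20* and *Cfap43* held TGTTTAC. The 150 bases before the start are shown for *Hoatz* and *Foxj1*, which name the set and held neither motif, and for 4 members that held matches near their start. *Cfap20* held both motifs, *Cfap161* and *Cfap44* each held 2 matches to the RFX core, and *Cfap43* held the forkhead core. Capitals mark the matches, which in these stretches lay on the other strand and so read TGGCAAC and GTAAACA. The stretches are on the minus strand at chr9:51013432-51013581, chr11:116226226-116226375, chr8:96161542-96161691, chr7:83444096-83444245, and chr19:47825822-47825971, and on the plus strand at chr16:44215002-44215151 (GRCm39), each written 5′ to 3′.
Hoatz: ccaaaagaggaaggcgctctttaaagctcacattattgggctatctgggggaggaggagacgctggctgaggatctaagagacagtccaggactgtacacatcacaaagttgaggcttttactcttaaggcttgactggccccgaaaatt
Foxj1: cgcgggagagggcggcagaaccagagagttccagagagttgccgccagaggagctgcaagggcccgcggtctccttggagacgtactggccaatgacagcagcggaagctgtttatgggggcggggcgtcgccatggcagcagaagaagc
Cfap20: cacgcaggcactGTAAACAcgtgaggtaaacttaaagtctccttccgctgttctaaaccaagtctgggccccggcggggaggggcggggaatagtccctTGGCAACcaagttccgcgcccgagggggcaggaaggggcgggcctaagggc
Cfap161: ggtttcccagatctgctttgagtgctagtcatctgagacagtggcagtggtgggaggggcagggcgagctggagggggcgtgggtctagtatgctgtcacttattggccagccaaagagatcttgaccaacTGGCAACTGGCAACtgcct
Cfap44: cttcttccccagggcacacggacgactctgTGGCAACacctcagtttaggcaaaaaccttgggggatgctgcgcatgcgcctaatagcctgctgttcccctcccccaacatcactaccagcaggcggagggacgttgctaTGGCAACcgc
Cfap43: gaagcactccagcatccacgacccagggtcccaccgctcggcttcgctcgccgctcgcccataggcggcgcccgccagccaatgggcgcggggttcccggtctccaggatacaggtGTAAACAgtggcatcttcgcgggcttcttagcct
In *Cfap161*, the matches followed each other without a gap and ended 6 bases before the start. In *Cfap44*, they began 120 and 10 bases before the start. None of the 4 members that differed between genotypes (below) held either motif in its 250 bases. A match of letters is a description of the stretch and not a binding site.

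*Hoatz* itself was among the least abundant members, with rank 69 of 75 by mean TPM. It was listed at 0.35, 0.24, and 0.56 TPM in the *Hoatz*-/- libraries and at 0.13, 0.36, and 0.50 TPM in the wild-type libraries. The genotypes overlapped, and *Hoatz* lay below the level required for testing. The gene is on the minus strand of chromosome 9 (50992355 to 51013431, GRCm39), with 4 annotated transcripts and 6 exons in the canonical transcript. Which exons the allele lacks is not given in the sources used here, and a value per gene does not show from which exons the reads came. Its level therefore did not check the genotype labels, and every direction below rests on them. *Btg4*, which overlaps *Hoatz* on the opposite strand, was listed at 0 in all libraries. The nearest member on the chromosome was *Cfap68*, at a distance of 305.5 kb.

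*Foxj1*, the transcription factor named by the rule, was detected in every library. It was at 3.92, 5.57, and 9.02 TPM in *Hoatz*-/- and at 6.15, 6.47, and 7.46 TPM in wild-type libraries. The postnatal day 172 *Hoatz*-/- library was the lowest of the 6 and the postnatal day 108 *Hoatz*-/- library the highest, so that the *Hoatz*-/- libraries spanned the wild-type range. The log2 fold change was −0.19 (SE 0.34, adjusted p = 0.733, limma with Benjamini-Hochberg adjustment over all genes tested). Median-of-ratios scaling gave 0.31, quantile normalization 0.32, and the total without mitochondrially encoded genes 0.02, so its direction depended on the scaling. It was also positive without the postnatal day 172 *Hoatz*-/- library (0.09) and without that pair (0.03).

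Levels of the members ranged widely. The 13 members with a mean of at least 10 TPM over the 6 libraries held between 71.6% and 84.3% of the summed member TPM in each library. The most abundant was *Cfap36*, whose product binds the ciliary GTPase Arl3, with a mean of 127 TPM. It was followed by *Rsph3a* (67.0 TPM), a radial spoke stalk gene, and *Cfap68* (53.4 TPM), a microtubule inner protein gene. The dynein heavy chain genes were all low, and *Dnah9*, an outer arm heavy chain, was the highest of them with a mean of 5.23 TPM. *Cfap97d1* was listed at 0 in every library. Near the limit for comparison, *Cfap221* was just inside, with 0.67 and 0.57 TPM in 2 *Hoatz*-/- libraries and 0.55 TPM in 1 wild-type library as its values above 0.5. *Cfap57* was just outside, with 0.78, 0.54, and exactly 0.50 TPM as its highest values.

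The summed TPM of all 75 members was 480.2, 483.7, and 594.3 in *Hoatz*-/- libraries, against 664.4, 802.8, and 762.6 in the wild-type. The *Hoatz*-/- libraries were below every wild-type library in this sum. The same held after rescaling without mitochondrially encoded genes (708.9, 718.3, and 808.0 against 828.6, 1008, and 924.6), whereas the genotypes overlapped after median-of-ratios scaling (617 ± 86.8 against 621 ± 100.2, SD, n = 3). In TPM as deposited, the 13 abundant members held most of the difference. Their sum was 392 ± 28.6 TPM (SD, n = 3) in *Hoatz*-/- and 603 ± 76.1 TPM (SD, n = 3) in wild-type libraries, and it overlapped between genotypes after median-of-ratios scaling (470 ± 87.6 against 505 ± 100.8, SD, n = 3). The largest gaps among them were those of *Cfap36* and of the pair *Rsph3a* and *Rsph3b*. *Cfap36* had a mean of 87.2 TPM in *Hoatz*-/- and 166.7 TPM in wild-type libraries, and the pair summed to 55.1 and 138 TPM. A sum without these genes was not taken. The sum of the 62 members below a mean of 10 TPM was 102.4, 109.8, and 169.0 in *Hoatz*-/- and 139.7, 126.1, and 155.4 TPM in wild-type libraries, and the genotypes overlapped. After median-of-ratios scaling, the sum of these less abundant members was higher in every *Hoatz*-/- library (147 ± 3.04, SD, n = 3) than in any wild-type library (116 ± 1.32, SD, n = 3). The scaled sums were chosen after the values were seen and were not tested.

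**Figure D1:**
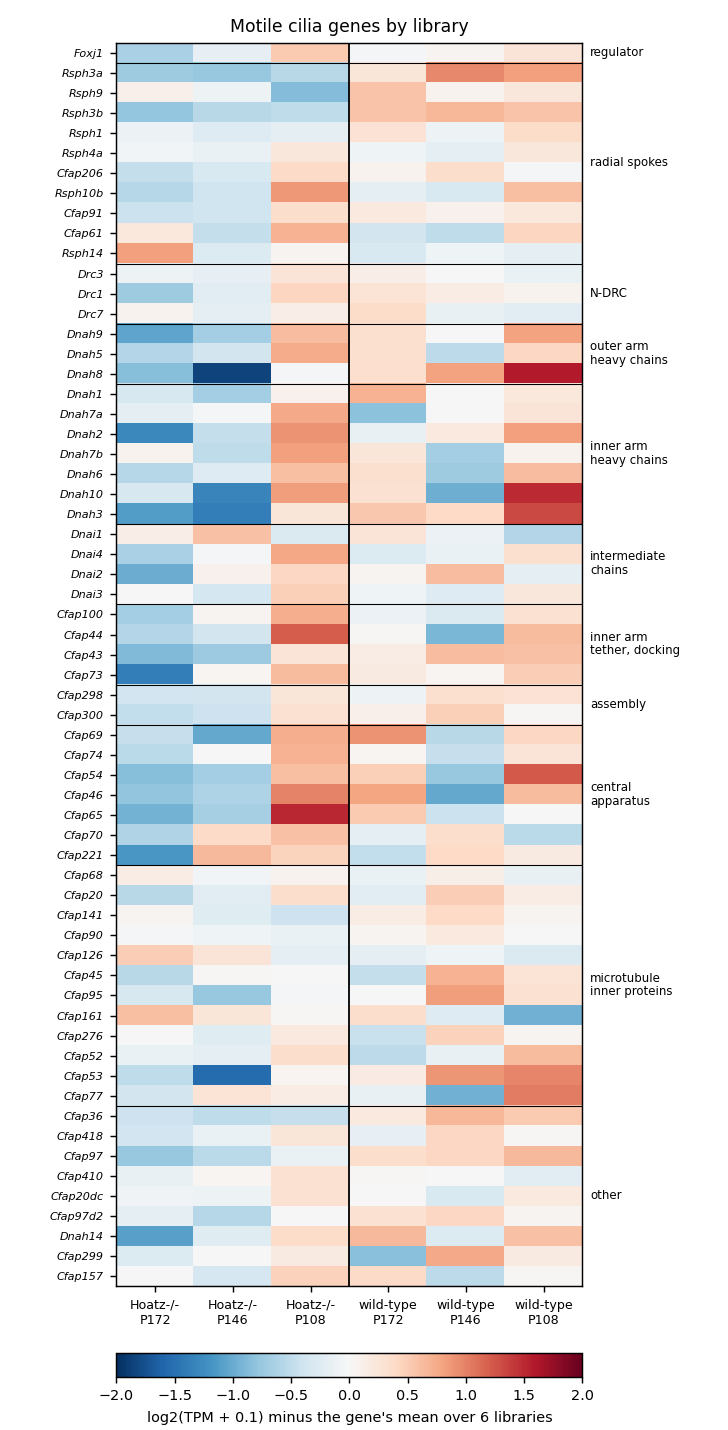
Heat map of the 62 members compared, by role, in the 6 libraries. Colour gives log2(TPM + 0.1) minus the gene's mean over the 6 libraries, rows are genes and columns are libraries (N-DRC, nexin-dynein regulatory complex). The *Hoatz*-/- library of postnatal day 108 is the highest of the 3 *Hoatz*-/- libraries for 49 of the 62 genes. Over all genes tested, its median log2 difference from the mean of the other *Hoatz*-/- libraries is 0.60.

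Between genotypes, 4 of the 62 members compared were lower in *Hoatz*-/- libraries at an adjusted p below 0.05 (6.45%), and none was higher. *Rsph3a*, *Rsph3b*, *Cfap36*, and *Cfap97* were the 4 members. Among all genes tested, 19.6% were lower and 0.924% were higher by this rule, so the share of members called lower was below the background. With a log2 fold change of at least 2 in size required as well, no member passed in either direction, against 7.58% lower and 0.0594% higher over all genes. At an unadjusted p below 0.05, 7 members were lower and none was higher in the same limma test, against 31.7% and 2.5% of all genes. The median log2 fold change of the members was −0.19, that of all genes was −0.44, and 43 of the 62 members lay above the latter. The members' median lay above that of all genes under each scaling, with median-of-ratios scaling at 0.29, quantile normalization at 0.47, and the total without mitochondrially encoded genes at 0.03. The number of members with a positive fold change was 22 of 62 as deposited, 43 with median-of-ratios scaling, and 51 with quantile normalization. The values of the genotypes did not overlap for 12 members (19.4%), all lower in *Hoatz*-/-, against 34.1% lower and 3.42% higher over all genes. *Dnah8*, which passed the limit for comparison only through the wild-type libraries, is among these 12 and among the 7 above. In all 3 littermate pairs, 19 members (30.6%) were lower in the *Hoatz*-/- mouse and 4 (6.45%) were higher, against 51.9% and 5.49% over all genes.

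**Figure D2:**
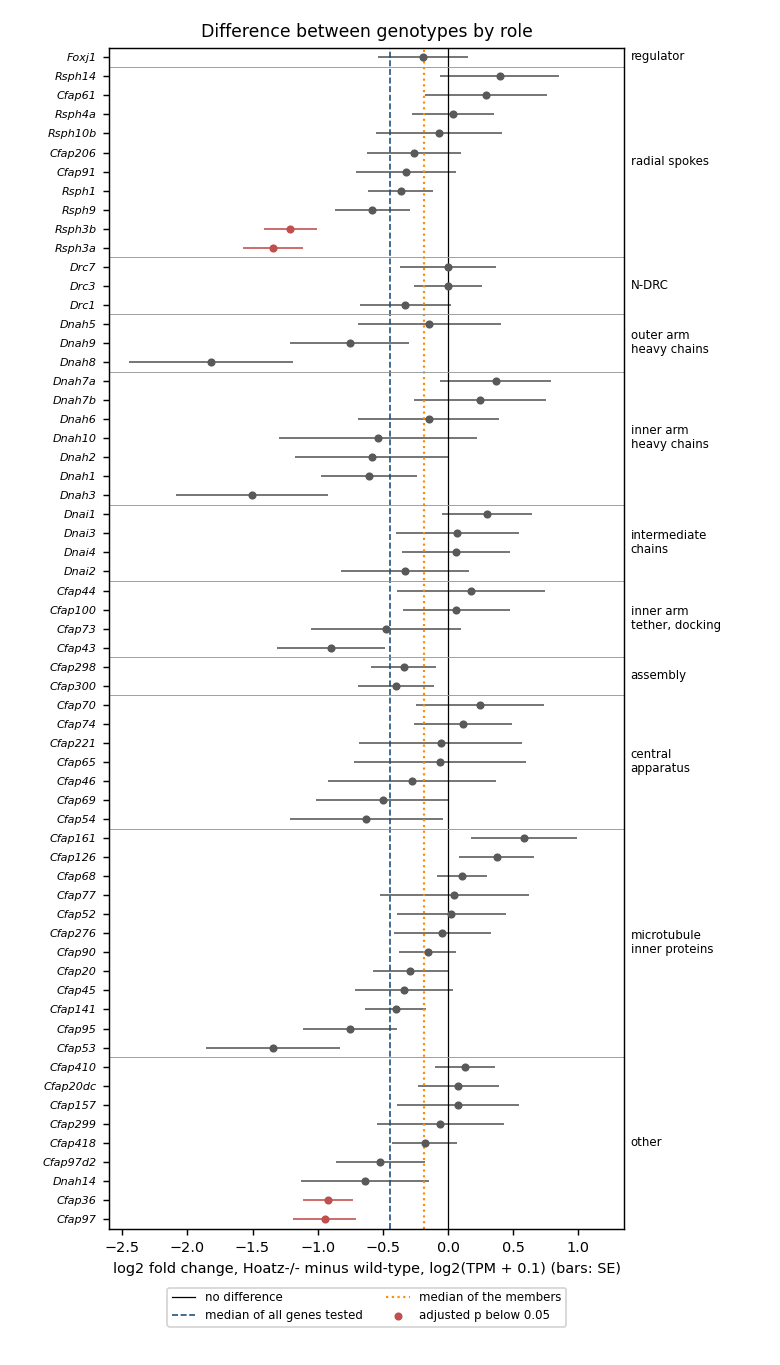
Log2 fold change (*Hoatz*-/- minus wild-type, log2(TPM + 0.1)) of the 62 members by role, with bars for the standard error. Red points are the 4 members with an adjusted p below 0.05, and the lines mark 0, the median of the members (−0.19), and the median of all genes tested (−0.44).

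*Rsph3a* and *Rsph3b* encode radial spoke stalk proteins that also anchor protein kinase A, and both lie on chromosome 17 (8164398 to 8198656 on the plus strand and 7171598 to 7216144 on the minus strand, GRCm39). *Rsph3a* was at 36.30, 35.18, and 40.40 TPM in *Hoatz*-/- and at 70.12, 115.50, and 104.74 TPM in wild-type libraries. The genotypes did not overlap, and the log2 fold change was −1.34 (SE 0.23, adjusted p = 0.00467, limma). *Rsph3b* was at 15.87, 18.47, and 19.09 TPM in *Hoatz*-/- and at 40.24, 43.03, and 40.40 TPM in wild-type libraries, again without overlap. Its log2 fold change was −1.21 (SE 0.20, adjusted p = 0.00392, limma). The canonical transcripts of the pair are 96.7% identical over 2306 bases, so the division of reads between them is uncertain and the copies are not independent. Their sum, which reads moved from one copy to the other do not change, was 55.1 ± 3.87 TPM (SD, n = 3) in *Hoatz*-/- and 138 ± 24.9 TPM (SD, n = 3) in wild-type libraries, and the genotypes did not overlap in it under the 3 scalings for which sums were taken. After median-of-ratios scaling, the log2 fold change was −0.83 (adjusted p = 0.0501, limma) for *Rsph3a* and −0.70 (adjusted p = 0.0398, limma) for *Rsph3b*. Both calls were lost without the postnatal day 146 pair (adjusted p = 0.103 and 0.105, limma) and under no other omission of a library or pair.

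*Cfap36*, on chromosome 11 (29165912 to 29197443, minus strand), was the member with the most transcript. It was at 89.73, 84.65, and 87.24 TPM in *Hoatz*-/- and at 137.28, 190.89, and 172.05 TPM in wild-type libraries. The *Hoatz*-/- libraries differed little among themselves and lay below every wild-type library, with a log2 fold change of −0.92 (SE 0.19, adjusted p = 0.0107, limma). *Cfap97*, a counterpart of the fly gene *hemingway* on chromosome 8 (46604808 to 46648627, plus strand), was at 11.95, 13.93, and 18.45 TPM in *Hoatz*-/- and at 25.89, 26.91, and 31.85 TPM in wild-type libraries. The genotypes did not overlap, and the log2 fold change was −0.95 (SE 0.24, adjusted p = 0.0239, limma). Neither call held after median-of-ratios scaling (adjusted p = 0.292 for *Cfap36* and 0.0687 for *Cfap97*, limma) or quantile normalization (0.0799 and 0.0530). The log2 fold changes shrank to −0.41 and −0.44 with median-of-ratios scaling and to −0.58 and −0.49 with quantile normalization. The call of *Cfap36* was lost without *Hoatz*-/- replicate 2 and without wild-type replicates 2 or 3 (adjusted p = 0.0637, 0.0506, and 0.0595, limma), and that of *Cfap97* without *Hoatz*-/- replicates 1 or 2 and without any wild-type replicate (between 0.0529 and 0.121). Leaving out whole pairs, *Cfap36* lost its call without the postnatal day 146 pair (0.269) and *Cfap97* without the postnatal day 172 or 146 pair (0.151 and 0.268). Over all omissions, the log2 fold change stayed between −1.08 and −0.80 for *Cfap36* and between −1.12 and −0.81 for *Cfap97*. *Gm56864*, a long non-coding RNA on the opposite strand (46616008 to 46616986), lies inside *Cfap97* over the start of its canonical transcript at 46616715. It was at 5.01, 2.63, and 4.46 TPM in *Hoatz*-/- and at 0, 0, and 1.0 TPM in wild-type libraries. It was higher in every *Hoatz*-/- library than in any wild-type library, in the direction opposite to *Cfap97*. No fold change or test is given, since it passed the limit for comparison through the *Hoatz*-/- libraries and was named after its values were seen. Whether the authors' quantification used strand is not given in the sources used here, so reads of the overlapping stretch may not be assigned to the right gene.

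**Figure D3:**
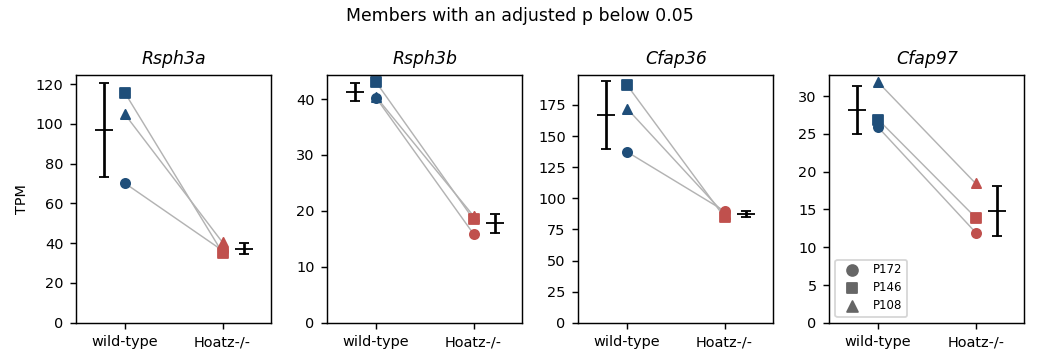
TPM of *Rsph3a*, *Rsph3b*, *Cfap36*, and *Cfap97* in the 3 wild-type and 3 *Hoatz*-/- libraries, with symbols for the age, grey lines joining littermates, and bars for the mean ± SD (n = 3). In each gene the 3 *Hoatz*-/- values lie below the 3 wild-type values.

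Among the radial spoke and spoke base genes, 10 of 11 were compared and 2 (*Rsph3a* and *Rsph3b*) were called lower, a share near the background of 19.6%. The sum of the 11 was 104.6, 99.3, and 100.6 TPM in *Hoatz*-/- and 178.8, 211.0, and 206.8 TPM in wild-type libraries. The genotypes did not overlap in this sum as deposited, but they did after median-of-ratios scaling (123 ± 31.9 against 166 ± 24.0, SD, n = 3). Without *Rsph3a* and *Rsph3b*, it was 46.4 ± 5.68 TPM (SD, n = 3) and 60.9 ± 8.0 TPM (SD, n = 3), and it overlapped between genotypes after median-of-ratios scaling and after rescaling without mitochondrially encoded genes. *Rsph14*, a spoke gene with 1.46, 0.63, and 0.82 TPM in *Hoatz*-/- and 0.62, 0.73, and 0.67 TPM in wild-type libraries, was among the 5 members with the most positive fold change (0.40, adjusted p = 0.584, limma). The postnatal day 172 *Hoatz*-/- library was the highest, and the genotypes overlapped.

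The outer dynein arm heavy chains numbered 5, of which *Dnah5*, *Dnah8*, and *Dnah9* were compared and none was called. Few genes were compared here and in the groups below, so a group without calls says little beside the 19.6% of all genes called lower. *Dnah9* was at 2.21, 2.90, and 7.29 TPM in *Hoatz*-/- and at 5.95, 4.72, and 8.32 TPM in wild-type libraries. It was lower in every littermate pair, but the postnatal day 108 *Hoatz*-/- library lay within the wild-type range (log2 fold change −0.75, SE 0.46, adjusted p = 0.278, limma). *Dnah8*, best known as the outer arm heavy chain of sperm flagella, was at 0.18, 0.04, and 0.40 TPM in *Hoatz*-/- and at 0.54, 0.78, and 1.42 TPM in wild-type libraries. The gene passed the limit for comparison only through the wild-type libraries, so that a lower level in *Hoatz*-/- was partly set by that limit. The fold change of *Dnah8* was the lowest of the members compared, at −1.82 on the log2 scale (SE 0.63). Since the limit partly set its direction, no p-value is given. Given how it passed the limit, it is not counted among the members that differed.

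Of the 9 inner dynein arm heavy chains, 7 were compared and none was called. *Dnah1*, the most abundant, was at 2.04, 1.58, and 2.76 TPM in *Hoatz*-/- and at 4.25, 2.59, and 3.0 TPM in wild-type libraries (log2 fold change −0.61, adjusted p = 0.278, limma; 0.09 after quantile normalization). *Dnah3* was at 0.19, 0.14, and 0.64 TPM in *Hoatz*-/- and at 0.81, 0.73, and 1.46 TPM in wild-type libraries, without overlap. Its log2 fold change was −1.50 (SE 0.58, adjusted p = 0.101, limma). *Dnah7a*, in contrast, was at 1.96, 2.22, and 3.85 TPM in *Hoatz*-/- and at 1.23, 2.26, and 2.72 TPM in wild-type libraries, with overlapping genotypes (0.36, adjusted p = 0.590, limma). Mice carry 3 copies of this gene whose transcripts are between 96.8% and 97.3% identical, so single values are uncertain. The sum of *Dnah7a*, *Dnah7b*, and *Dnah7c* was 2.97, 3.10, and 5.85 TPM in *Hoatz*-/- and 2.47, 3.34, and 3.88 TPM in wild-type libraries, and the genotypes overlapped.

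The 4 dynein intermediate chains were all compared and none was called. *Dnai1*, a subunit of the outer arm, was at 6.26, 8.61, and 4.63 TPM in *Hoatz*-/- and at 6.81, 5.24, and 3.73 TPM in wild-type libraries, and the log2 fold change was 0.30 (adjusted p = 0.587, limma). Among the 5 genes for docking, tethering, and regulating inner arms, *Cfap100* was the most abundant of the 4 compared. It was at 1.95, 3.33, and 5.33 TPM in *Hoatz*-/- and at 2.95, 2.59, and 3.97 TPM in wild-type libraries, and its log2 fold change of 0.06 (adjusted p = 0.932, limma) became −0.10 after correction for transcript length and GC content. *Cfap298* and *Cfap300*, which act in the assembly of dynein arms in the cytoplasm, were not called. *Cfap298* was at 26.48, 26.99, and 40.96 TPM in *Hoatz*-/- and at 32.42, 43.40, and 42.36 TPM in wild-type libraries. It was lower in every pair while the genotypes overlapped (−0.34, adjusted p = 0.365, limma), and its fold change turned to 0.17 with median-of-ratios scaling and 0.11 with quantile normalization. With correction for transcript length and GC content together with the littermate block, it was −0.57 (adjusted p = 0.0461, limma).

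None of the 3 genes of the nexin-dynein regulatory complex was called. *Drc3* was at 6.93, 6.65, and 8.97 TPM in *Hoatz*-/- and at 8.18, 7.46, and 6.77 TPM in wild-type libraries, and its log2 fold change was 4e-04 (SE 0.26, adjusted p = 0.999, limma). Of the 8 central apparatus genes, 7 were compared and none was called. *Cfap69*, the most abundant of them, was at 3.92, 2.62, and 9.0 TPM in *Hoatz*-/- and at 10.21, 3.65, and 7.22 TPM in wild-type libraries (−0.50, SE 0.51, adjusted p = 0.528, limma). The spread within each genotype was larger than the difference between them.

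The microtubule inner proteins included the member with the highest fold change. Of 13 genes, 12 were compared, none was called, 5 were lower in all 3 pairs, and 2 were higher in all 3 pairs, against 51.9% and 5.49% of all genes. *Cfap68* was at 59.10, 51.11, and 55.83 TPM in *Hoatz*-/- and at 48.66, 57.65, and 47.79 TPM in wild-type libraries (0.11, SE 0.19, adjusted p = 0.727, limma). *Cfap161* was at 4.41, 3.42, and 2.91 TPM in *Hoatz*-/- and at 3.67, 2.39, and 1.42 TPM in wild-type libraries. It was higher in the *Hoatz*-/- mouse of every pair, the genotypes overlapped, and the log2 fold change was the highest of the members compared at 0.58 (SE 0.41, adjusted p = 0.348, limma). *Cfap126*, known as Flattop, was at 8.48, 7.19, and 5.25 TPM in *Hoatz*-/- and at 5.21, 5.67, and 4.91 TPM in wild-type libraries, likewise higher in every pair (0.37, adjusted p = 0.395, limma). *Cfap53*, which also helps to hold outer arms, was at 0.72, 0.30, and 1.09 TPM in *Hoatz*-/- and at 1.2, 2.04, and 2.19 TPM in wild-type libraries. It did not overlap between genotypes but was not called (−1.34, SE 0.51, adjusted p = 0.0978, limma).

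The members called differed with the scaling. After median-of-ratios scaling, only *Rsph3b* was called lower, and *Cfap410*, a gene known from primary cilia, was called higher (log2 fold change 0.64, adjusted p = 0.0492, limma), while 11.8% of all genes were lower and 8.1% higher. *Cfap410* was at 15.32, 17.60, and 21.04 TPM in *Hoatz*-/- and at 17.30, 16.96, and 14.69 TPM in wild-type libraries, which overlap as deposited. With median-of-ratios scaling and the littermate block together, *Cfap410*, *Dnai1* (0.80, adjusted p = 0.0482, limma), and *Cfap161* (1.07, adjusted p = 0.0255, limma) were called higher, against 9.7% of all genes, and 11.9% of all genes were lower. Quantile normalization left *Rsph3a* and *Rsph3b* as the members called lower and none called higher, against 10.3% and 7.88% of all genes.

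The postnatal day 108 *Hoatz*-/- library held the highest of all 6 values for 24 of the 62 members and the highest of the 3 *Hoatz*-/- values for 49. The postnatal day 172 *Hoatz*-/- library, in which choroid plexus markers were high, held the lowest of the 6 values for 26. How many of all genes tested share these patterns was not counted. The median log2 difference between the postnatal day 108 *Hoatz*-/- library and the mean of the other *Hoatz*-/- libraries was 0.70 over the members and 0.60 over all genes tested. In the wild-type libraries the same difference between ages was 0.22 over the members and 0.23 over all genes. The difference was larger in members with long transcripts. Over the 20 members with a canonical transcript of at least 5000 bases, all dynein heavy chains included, the median was 1.16 (from 0.40 to 2.31), and over the 42 shorter members it was 0.45 (from −0.86 to 1.46). In the wild-type libraries these medians were 0.58 and 0.05. As a description across genes, which share their libraries and are not independent, Spearman's rho between transcript length and this difference was 0.65 over the 62 members and 0.45 over 14180 protein-coding genes in *Hoatz*-/-, and 0.46 and 0.41 in wild-type libraries. Between the log2 fold change of genotype and transcript length, rho was −0.19 over the members and −0.15 over the protein-coding genes. The part of age, library, and transcript length in these differences was not tested, since each genotype had 1 library per age.

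**Figure D4:**
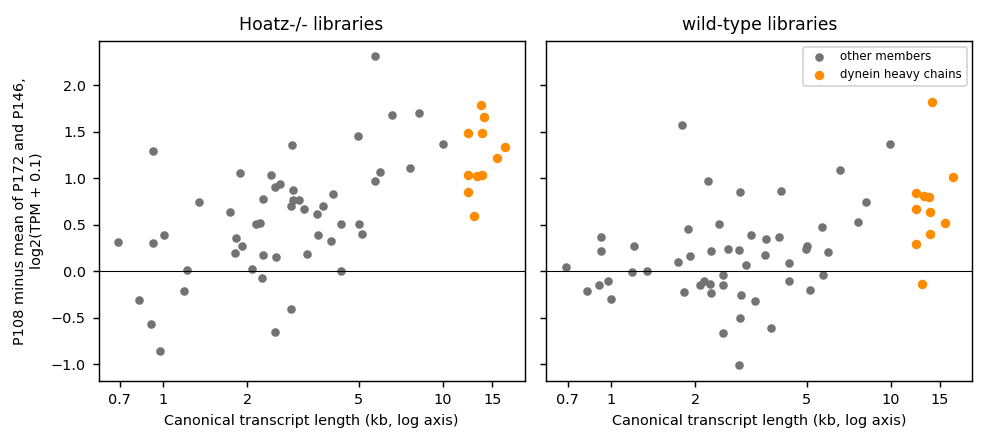
Difference on the log2(TPM + 0.1) scale between the postnatal day 108 library and the mean of the other libraries of the same genotype against canonical transcript length (kb, log axis) for the 62 members, in *Hoatz*-/- (left) and wild-type libraries (right), with dynein heavy chains in orange. In *Hoatz*-/- all 20 members of at least 5000 bases lie above 0, with a median of 1.16.

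Leaving out the postnatal day 108 *Hoatz*-/- library raised the number of members called lower from 4 to 10, while over all genes the share rose from 19.6% to 39.6% (higher, 1.26%) and the median log2 fold change moved from −0.44 to −0.66. The 6 added members were *Dnah8* (−2.26), *Dnah3* (−2.0), *Cfap53* (−1.70), *Cfap43* (−1.25), *Dnah9* (−1.25), and *Cfap300* (−0.66), with adjusted p between 0.0166 and 0.0455 (limma, log2 fold changes in parentheses). Among the remaining libraries, *Dnah8* and *Dnah3* were above 0.5 TPM in wild-type libraries alone, so their calls follow in part from the limit for comparison. *Cfap43*, a part of the inner arm tether, was at 1.02, 1.15, and 2.37 TPM in *Hoatz*-/- and at 2.19, 3.05, and 3.0 TPM in wild-type libraries, so that only the omitted library overlapped the wild-type range. The count was 2 without *Hoatz*-/- replicate 2 or without wild-type replicates 2 or 3, where 9.84%, 12.6%, and 8.35% of all genes, respectively, were called lower and between 0.346% and 0.411% higher. It was 0 without the postnatal day 146 pair, where 2 libraries of each genotype remained and 7.98% of all genes were called lower and 0.259% higher (limma).

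Other genes of motile cilia, listed by role and not covered by the naming rule, were mostly not called either. Of 44 tested, 4 were lower and none was higher, against 19.6% and 0.924% of all genes, and the median log2 fold change was −0.30. With median-of-ratios scaling the median was 0.19, 2 were called lower, and 3 were called higher, against 11.8% and 8.1% of all genes under that scaling. The genes called in TPM as deposited were *Nme7* of the doublet lumen (−1.31), *Gas8* of the nexin-dynein regulatory complex (−0.96), and *Odad1* (−1.47) and *Odad4* (−1.25) of the outer arm docking complex, with adjusted p between 0.00422 and 0.0453 (limma). After median-of-ratios scaling, *Gas8* (adjusted p = 0.107, limma) and *Odad4* (0.0914) lost their calls. Of the 4, only *Nme7* stayed called after quantile normalization (0.0381). *Nme7* was at 16.83, 15.53, and 17.22 TPM in *Hoatz*-/- and at 33.55, 48.29, and 42.76 TPM in wild-type libraries, and the genotypes did not overlap. *Dnal1*, an outer arm light chain gene and the most abundant of the list, was at 35.14, 38.80, and 59.53 TPM in *Hoatz*-/- and at 63.11, 68.12, and 76.36 TPM in wild-type libraries, without overlap (−0.67, SE 0.24, adjusted p = 0.0809, 0.0431 with the littermate block, limma), and the fold change was −0.16 after median-of-ratios scaling. Among 9 regulators of multiciliation tested, none was called in either direction, against 19.6% lower and 0.924% higher over all genes. The genotypes did not overlap for 3 of them, all lower in *Hoatz*-/-, against 34.1% of all genes. With so few genes, the lack of calls says little. *E2f4*, a factor in the program for making centrioles and the most abundant of them, was at 9.39, 9.96, and 19.77 TPM in *Hoatz*-/- and at 16.50, 19.59, and 23.72 TPM in wild-type libraries. It was lower in every pair while the genotypes overlapped (−0.68, SE 0.32, adjusted p = 0.174, limma; −0.17 after median-of-ratios scaling).

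Markers of ependymal cells, the ciliated cells of the ventricle wall, were also listed. Of 10 tested, 2 were higher in *Hoatz*-/- libraries and none was lower, against 0.924% and 19.6% of all genes, and the median log2 fold change was 0.53. *Rarres2*, which encodes chemerin, was at 32.52, 30.00, and 32.35 TPM in *Hoatz*-/- and at 15.80, 10.94, and 8.10 TPM in wild-type libraries (1.49, SE 0.27, adjusted p = 0.00622, limma). *Tmem212* was at 8.94, 11.32, and 8.75 TPM in *Hoatz*-/- and at 4.37, 2.68, and 3.23 TPM in wild-type libraries (1.49, SE 0.30, adjusted p = 0.00896, limma). Neither overlapped between genotypes, and with the littermate block *Ccdc153* (0.72) and *Mia* (1.47) were called higher as well (adjusted p = 0.0468 and 0.0224, limma), against 1.18% of all genes. After median-of-ratios scaling, 3 of the 10 were called higher and none lower, against 8.1% and 11.8% of all genes, and the median was 1.03. *Tm4sf1* was below every wild-type library in every *Hoatz*-/- library but was not called (−0.24, adjusted p = 0.463, limma; 0.27 after median-of-ratios scaling). The summed TPM of the 10 markers, most of it from *Nnat* (0.04, adjusted p = 0.911, limma), lay between 602.4 and 718.0 in *Hoatz*-/- and between 529.0 and 747.4 in wild-type libraries. The list shares *Tekt1*, *Dynlrb2*, and *Sntn* with the list of other motile cilia genes. The part of ependymal and choroid plexus tissue in the members' levels was not tested.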

How the data were processed

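Hippocampal poly(A) RNA from 3 *Hoatz*-/- and 3 wild-type mice was sequenced from strand-specific libraries. According to the study's methods, reads were trimmed, aligned with STAR against GRCm39 from which ribosomal RNA had been removed, and quantified with RSEM. The submitters' processing notes instead name featureCounts of Subread 2.0.3, beside STAR 2.7.10a, Trimmomatic 0.39, and FastQC 0.11.9, and which of them made the deposited TPM values (2 decimals) is not settled here. A counter that drops reads with several matches would lower near-identical copies such as *Rsph3a* and *Rsph3b*. Of 7 pairs of genes with identical transcripts, 3 pairs (*Ccl21b* and *Ccl21e* among them) had equal values in all 6 libraries, above 0 in at least 1 of them, so such reads were counted at least there. The annotation release is not given in the sources used here, and 618 of the 56941 identifiers were not in GENCODE M39, which held all 75 members. TPM values keep no depth, so the reads behind a value are unknown and no counting interval is given.

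Genes with at least 0.5 TPM in at least 3 libraries (18509) entered a limma 3.58.1 fit (R 4.3.3, intensity trend, genotype as the factor) on log2(TPM + 0.1), with Benjamini-Hochberg adjustment over these genes. Fold changes are on this scale and understate the change of low genes. The fit held 63 members, since *Cfap57* reached exactly 0.50 TPM in the last library it needed. Only the limma fit was tested on simulated data with known fold changes. The simulated noise was independent between libraries, without a shift over all genes and without littermate pairs, so it does not cover these features of the data. Motifs, lengths, and positions came from GENCODE M39 with python 3.11.15, and transcripts were aligned with blastn 2.17.0. Genes named were *Hoatz*, *Foxj1*, the members called, 5 members each from the top and the bottom of the fold changes, the most abundant member of each role, and, in other lists, genes called and the most abundant. Further genes are given for the limit, a scaling, an omission, or an overlap. The members and lists were chosen with earlier results of these data known.

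Libraries of the same age came from littermates. The deviations of littermates from their genotype means correlated at −0.011, 0.112, and 0.178 for replicates 1, 2, and 3 over all genes, and at 0.058, 0.438, and 0.555 over the members. The methods of the study name no block, so blocking on the pair was tried as an alternative. Other alternatives were pseudocounts of 0.01, 0.5, and 1, other filters on low values, quantile normalization, median-of-ratios scaling, a total without mitochondrially encoded genes, correction for transcript length and GC content, limma without trend or with robust estimation, and leaving out libraries and pairs. The p-values of the main fit set the difference between genotypes against the spread within genotypes, which limma estimates in part from all genes. With 1 library per age in each genotype, that spread mixes mouse, age, litter, and library. Protein sequences were not analysed here.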

Additional observations from a re-analysis of the deposited data

How the results depend on the processing

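Members called lower numbered 4, and 1 after median-of-ratios scaling with or without the replicate block and 2 after quantile normalization. They numbered 5 with the replicate block alone and between 0 and 10 when libraries or pairs were left out. *Dnah8*, which passed the limit on low values only through the wild-type libraries, is in the 5 and in the 10. Members called higher numbered 0, and 1 after median-of-ratios scaling and 3 with the block added. The members' median log2 fold change of −0.19 became 0.29 after median-of-ratios scaling with or without the block, 0.47 with quantile normalization, and 0.028 with the total taken without mitochondrially encoded genes. It ranged from −0.46 to 0.0087 over the omissions, positive only without *Hoatz*-/- replicate 1.

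Of the 62 members, 21 went from a negative to a positive fold change with median-of-ratios scaling, 29 with quantile normalization, and none the other way. Among the members named by the rule, these changes of sign were seen. The log2 fold change of *Cfap298* was 0.17 after median-of-ratios scaling, also with the block, and 0.11 after quantile normalization. That of *Foxj1* was 0.31, also with the block, 0.32, and, without mitochondrially encoded genes, 0.020. Over the omissions it ranged from −0.50 to 0.087, being 0.087 without *Hoatz*-/- replicate 1 and 0.029 without that pair. Quantile normalization gave 0.046 for *Cfap69* and 0.090 for *Dnah1*. Correction for transcript length and GC content, with or without the block, gave −0.20 for *Drc3* and −0.10 for *Cfap100*, which both changed sign with omissions as well. Over these, *Drc3* ranged from −0.20 to 0.12 (−0.13 without *Hoatz*-/- replicate 3, 0.081 without *Hoatz*-/- replicate 2) and *Cfap100* from −0.28 to 0.42 (−0.079 and −0.11 without the pairs of replicates 2 and 3). The cause was not tested. The replicate block alone added *Dnah8*, whose direction the limit on low values partly set, and changed no other member's call. *Dnah8* was not called with median-of-ratios scaling added. Pseudocounts, filters on low values, and limma without trend or with robust estimation kept each count within 1.5 times its value as reported. The depth behind the values is unknown, and what size of difference could be detected in low members was not tested.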

Other observations

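Genes of the primary cilium, which neurons bear, were listed for comparison. Of 25 tested, 6 were lower in *Hoatz*-/- libraries and none was higher (adjusted p below 0.05, limma, against a background of 19.6% lower), and the median log2 fold change was −0.47. *Kif3a*, a motor subunit of intraflagellar transport, was at 54.61, 58.73, and 68.26 TPM in *Hoatz*-/- and at 279.92, 278.32, and 318.96 TPM in wild-type libraries (−2.27, SE 0.18, adjusted p = 0.000576, limma). The genotypes were far apart in this gene, and the fold change was −1.76 after median-of-ratios scaling. *Ift20* (−0.73) and *Ift57* (−0.75) of the transport particles, *Sstr3* (−1.37), a ciliary somatostatin receptor, *Cep290* (−1.46) of the transition zone, and *Arl13b* (−1.28), a ciliary GTPase, were the others called lower. *Arl3*, a ciliary GTPase gene and the most abundant of the list, was at 185.15, 165.90, and 168.94 TPM in *Hoatz*-/- and at 224.19, 214.57, and 196.65 TPM in wild-type libraries, and it was not called (−0.29, adjusted p = 0.272, limma; 0.22 after median-of-ratios scaling). After median-of-ratios scaling, 3 of the 25 genes were called lower, a share near the 11.8% of all genes under that scaling, and the median was 0.03. The 3 were *Kif3a*, *Sstr3*, and *Cep290*. The calls lost were those of *Ift20* (−0.22, adjusted p = 0.535, limma), *Ift57* (−0.24, 0.387), and *Arl13b* (−0.77, 0.0821).

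Of 9 choroid plexus markers tested, 1 was lower (*Otx2*, −1.22, adjusted p = 0.0471, limma) and none was higher, against 19.6% and 0.924% of all genes. *Otx2* was not called after median-of-ratios scaling (0.254) or quantile normalization (0.327). With the littermate block, *Folr1* was called higher (1.43, adjusted p = 0.0207, limma) and *Prlr* was called lower (0.0251) as well, against 1.18% of all genes higher and 25.5% lower. *Ttr*, the most abundant of them and not called (1.99, adjusted p = 0.323, limma), was at 658.02 TPM in the postnatal day 172 *Hoatz*-/- library and between 8.88 and 13.66 TPM in the others. Of 8 meningeal fibroblast markers tested, none was called, and with the littermate block *Igf2* was called higher (1.07, adjusted p = 0.0163, limma). After median-of-ratios scaling, *Igf2* (adjusted p = 0.00567, limma) and *Lum* (0.0123) were called higher, against 8.1% of all genes. *Dcn*, the most abundant, was lower in every *Hoatz*-/- library than in any wild-type library but was not called (−0.40, adjusted p = 0.215, limma), and its direction depended on the scaling (−0.0067 with quantile normalization and 0.11 with median-of-ratios scaling). Of 10 hippocampal neuron markers, 3 were lower (*Zbtb20*, −2.70, *Neurod6*, −1.02, and *Grik4*, −1.71) and 1 was higher (*Bok*, 0.85), against 19.6% and 0.924% of all genes. After median-of-ratios scaling, *Neurod6* was not called (adjusted p = 0.152, limma) and 2 of the 10 were lower, against 11.8% of all genes.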
